A study of Mus musculus with 12 samples.

Results

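The fetal and stretch-responsive cardiac genes comprised 9 members of the 52858 genes in the deposited table, chosen by gene symbol with earlier results of these data known. They were Nppa and Nppb, which encode the natriuretic peptides ANP and BNP, Myh7 and Acta1, which encode the slow β-myosin heavy chain and skeletal α-actin, and Ankrd1, Xirp1, Xirp2, Csrp3 and Fhl1, which encode proteins of the Z-disc, the I-band and the intercalated disc. All 9 passed the filter on low values that left 15258 genes to test. The lists of related genes were chosen in the same way, so counts over members and lists are a description. In the mouse, the ventricle expresses the natriuretic peptides, β-myosin heavy chain and skeletal α-actin before birth. The myosin and the actin are afterwards replaced by adult counterparts. Pressure load, wall stretch and injury are known to switch many of these fetal genes on again. This return of the fetal programme is a standard marker of hypertrophy and heart failure. Ankrd1 (CARP), Csrp3 (muscle LIM protein), Fhl1 and the Xin proteins sit where the sarcomere carries tension, and several of them are known to be induced when cardiomyocytes are stretched.

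RNA was sequenced from 12 hearts of adult male mice in 4 groups of 3. C57-non-IR and C57-IR hearts came from C57BL/6J mice, the background strain. Slit2-non-IR and Slit2-IR hearts came from Slit2-Tg mice, which carry a human Slit2 cDNA driven by the CMV promoter, a promoter not restricted to one tissue or cell type. The line was made in C57 × CBA F1 oocytes, so it may keep CBA segments around the transgene. Every heart was isolated and perfused ex vivo on a Langendorff apparatus, which leaves it without its nerves and circulating blood. IR hearts underwent no-flow global ischemia and then reperfusion, and non-IR hearts were perfused without interruption for as long. The labels give the genotype but do not spell out the perfusion: the second letter of each sample title, I or C, was read as IR or non-IR from the groups named in the methods of the study. Expression is given as FPKM, fragments scaled for gene length and by a factor per library. This allows levels to be compared between libraries and, as far as the listed lengths hold, between genes.

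The libraries held 16601154 to 24841291 reads on genes. That the samples were heart muscle was borne out by 12 markers listed as ventricular cardiomyocyte. They summed to 18240 to 27413 FPKM and each reached at least 1 FPKM, and the sums were not used to tell ventricle from atrium. Group means of the mouse gene Slit2 lay between 0.178 and 0.350 FPKM, and since the transgene is a human cDNA they do not check the genotype labels. Slit2-IR replicate 1 stood apart. Its 13 atrial cardiomyocyte markers (Nppa left out) summed to 1684 FPKM, against 205 in C57-IR replicate 2 and 40.99 to 62.7 in the other libraries. Myl7, the atrial myosin light chain, reached 1049 FPKM there and 108 in C57-IR replicate 2, and Bmp10, which marks right atrial muscle, was at most at 1 read in every library. The same library was also the highest for 16 skeletal muscle markers (members left out), at 44.0 FPKM. Next came Slit2-non-IR replicate 3 at 20.7 and Slit2-IR replicate 3 at 19.8 FPKM, and the others held 7.55 to 11.2. Most of that sum was Mybpc2 and Casq1, whereas Myh4 and Tnnc2, which define fast skeletal fibers, had no read in any library. By exact permutation tests of 3 hearts against 3, which cannot give a p below 0.1, the atrial sums of the 4 pairs of groups had two-sided p-values of 0.2 to 0.8 and the skeletal sums 0.3 to 0.6 (adjusted over the 8, 0.64 to 0.8). Of the 9 members, 6 had their highest value of all 12 libraries in Slit2-IR replicate 1 (Nppa, Myh7, Acta1, Ankrd1, Xirp2 and Csrp3). The part of atrial or skeletal tissue in these values was not tested, and in whole-heart RNA a change in the cells sampled and a change in RNA per cell cannot be told apart.

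**Figure D1:**
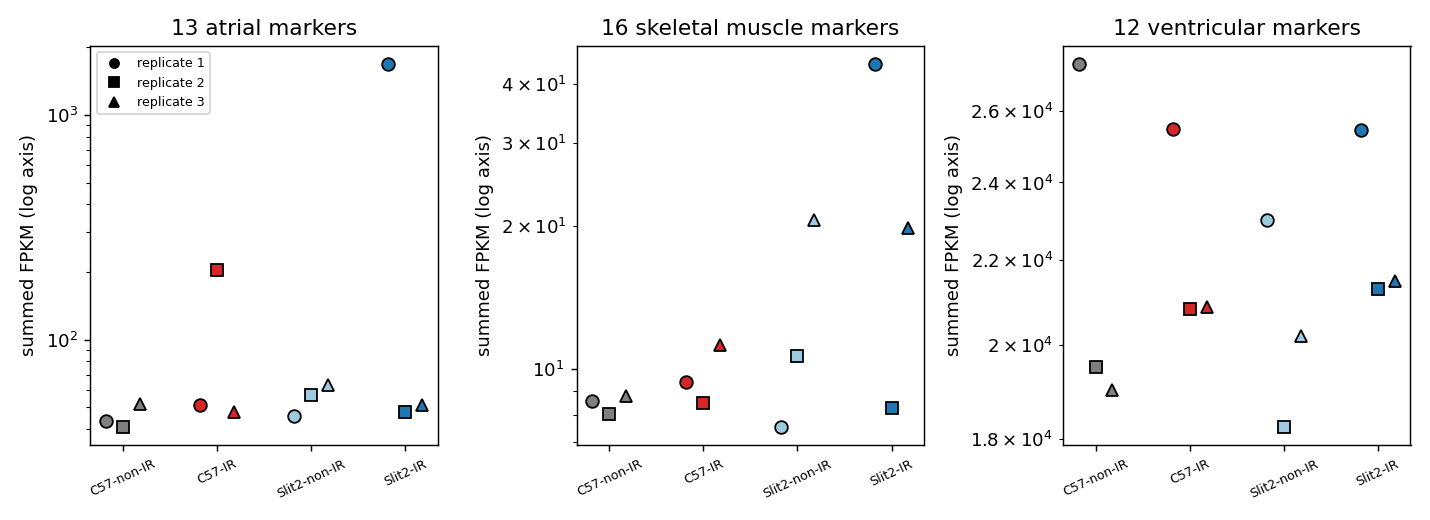
Summed FPKM (log axis) of 13 atrial, 16 skeletal muscle and 12 ventricular markers in each library of the 4 groups, 1 point per heart with the shape giving the replicate number. Slit2-IR replicate 1 lies at 1684 for the atrial and 44.0 for the skeletal list, while the ventricular sums of all libraries lie between 18240 and 27413.

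The bases before the start site of 3 members are shown because they carry the short motifs through which stretch and the fetal programme are known to act. Sequences are RefSeq promoters of GRCm38.p6, 250 bases ending just before the annotated start site, written 5′ to 3′ on the strand of the gene. Capitals mark the letters of a searched motif on either strand.
Ankrd1 (chr19:36119845-36120094, minus strand): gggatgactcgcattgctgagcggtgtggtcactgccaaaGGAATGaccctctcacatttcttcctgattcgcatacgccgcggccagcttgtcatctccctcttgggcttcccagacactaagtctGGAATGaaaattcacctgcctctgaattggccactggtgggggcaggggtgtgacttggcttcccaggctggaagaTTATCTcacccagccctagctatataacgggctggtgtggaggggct
Acta1 (chr8:123894776-123895025, minus strand): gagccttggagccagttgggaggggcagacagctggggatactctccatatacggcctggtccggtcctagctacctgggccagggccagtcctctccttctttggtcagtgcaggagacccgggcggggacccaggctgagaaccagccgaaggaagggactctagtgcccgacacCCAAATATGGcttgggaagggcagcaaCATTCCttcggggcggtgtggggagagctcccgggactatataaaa
Xirp2 (chr2:67445752-67446001, plus strand): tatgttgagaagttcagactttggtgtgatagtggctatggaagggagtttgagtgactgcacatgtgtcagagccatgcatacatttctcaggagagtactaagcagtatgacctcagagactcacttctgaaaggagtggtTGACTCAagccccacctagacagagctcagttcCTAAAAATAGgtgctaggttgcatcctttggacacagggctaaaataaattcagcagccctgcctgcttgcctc

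In Ankrd1, the capitals are the M-CAT element, the site of TEAD factors (CATTCC, read here from the other strand), at 210 and 123 bases before the start, and a GATA site (AGATAA, also from the other strand) at 47 bases. In Acta1 they are the CArG box, the site of serum response factor, at 73 bases and M-CAT at 46 bases. In Xirp2 they are an AP-1 site (TGANTCA) at 107 bases and the MEF2 site at 74 bases. The table held a promoter for 8 of the 9 members, with 11 windows between them, and Xirp1 had none. M-CAT was present for 4 members, the 2 others being Nppb (105 bases before the start, beside a GATA site at 84) and Myh7 (201 bases, in 1 of its windows). The CArG box was present for Acta1 and Fhl1 (102 bases). Of all 32851 promoter windows of this length, 12.6% held M-CAT, 9.99% GATA, 6.75% AP-1, 1.47% the CArG box and 1.69% the MEF2 site, and no match overlapped another motif. Nppa and Csrp3 held none of these letters in their windows. The file places the start of Nppb upstream of the RefSeq start, so its 2 motifs lie within the gene as the file annotates it. The same holds for the CArG box of Fhl1, whose window (chrX:56779433-56779682) lies inside the annotated span of the gene (chrX:56731787-56793346).

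The members spanned a wide range of levels. Averaged over the 12 libraries, Ankrd1 was highest at 505 FPKM, followed by Csrp3 at 412 and Nppb at 407, Acta1 at 223, Xirp1 at 96.7 and Nppa at 77.6. Myh7 (28.7), Xirp2 (27.5) and Fhl1 (27.2) were lowest, and their SDs over libraries (15.6, 7.97 and 2.77 FPKM) were larger than the gaps between them. Ankrd1, Csrp3 and Nppb likewise overlapped, with SDs of 292, 76.5 and 265 FPKM. The spread between hearts also differed between members. The highest library exceeded the lowest 15.4-fold for Nppa and 10.4-fold for Nppb, 7.57-fold for Acta1 and 6.39-fold for Xirp1, but 1.98-fold for Csrp3 and 1.49-fold for Fhl1. The fewest reads behind any of these values were 199, for Nppa in C57-non-IR replicate 3, and no other member fell under 1670 reads in a library, so counting error was small beside the spread between hearts.

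**Figure D2:**
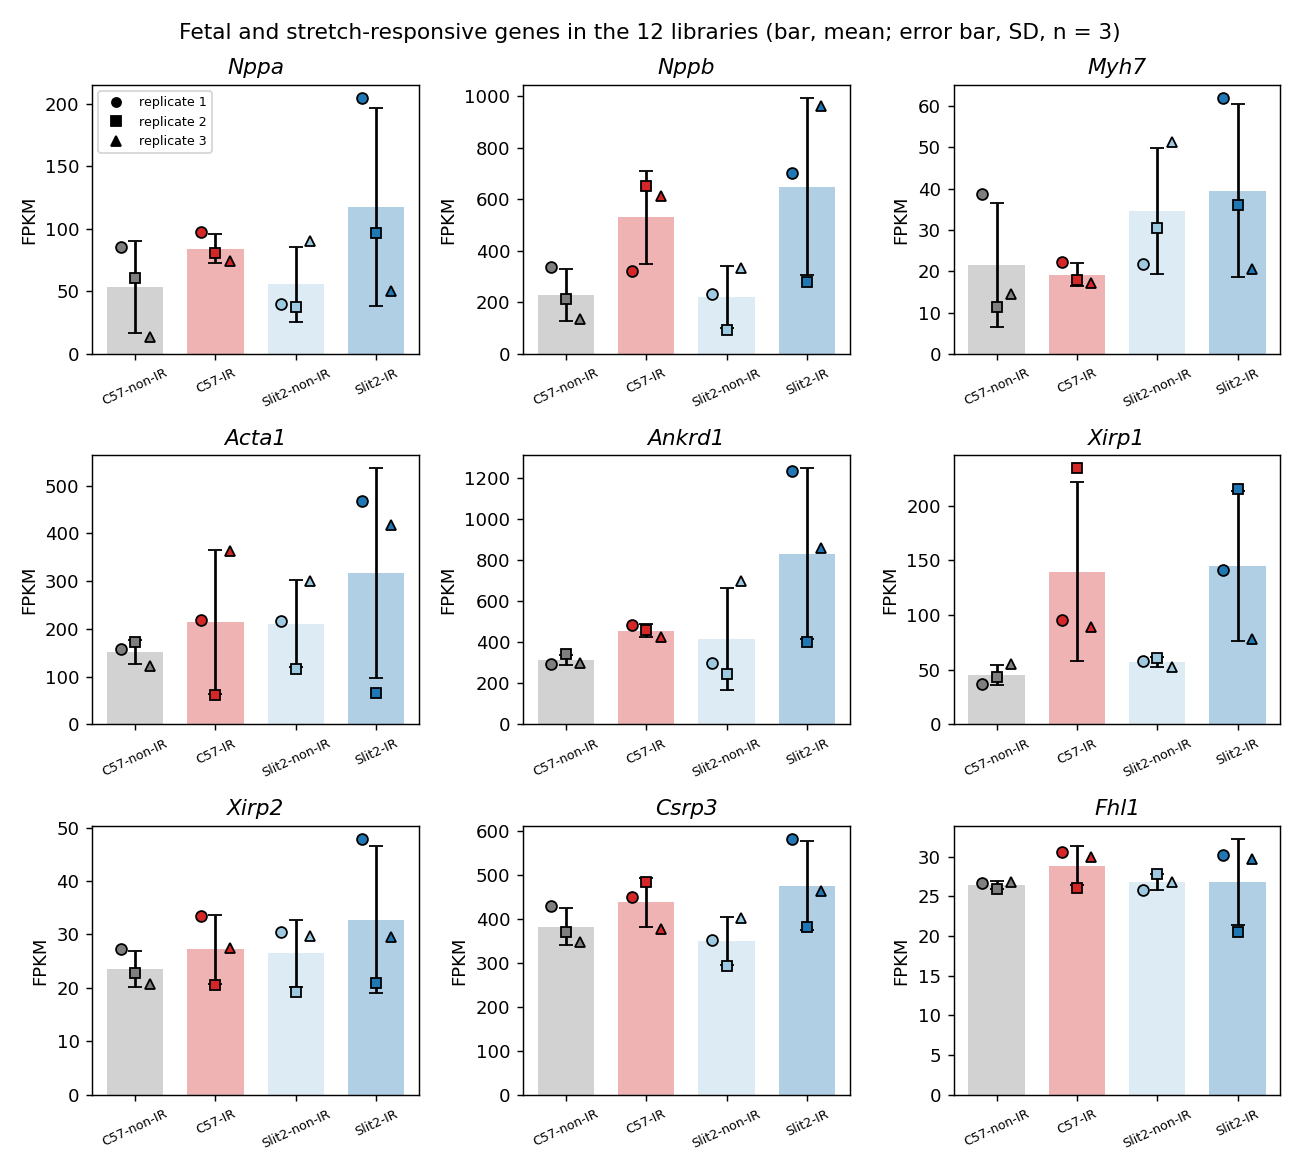
FPKM of the 9 members in the 12 libraries by group (linear axes from 0; bar, mean; error bar, SD of 3 hearts; marker shape, replicate number). Xirp1 is the one member whose IR hearts lie above the non-IR hearts in both genotypes, and Slit2-IR replicate 1 is the highest point of 6 panels.

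IR and non-IR hearts were compared within each genotype and as the average of both genotypes. Fold changes are on the log2(FPKM + 1) scale, with limma p-values adjusted by Benjamini-Hochberg over the 15258 genes. Averaged over genotypes, all 9 members had a fold change above 0 (51.2% of all genes did), with a median of 0.31 against 0.00 over all genes tested, and 1 of 9, Xirp1, passed the adjusted threshold of 0.05, which 3.48% of all genes passed. At an unadjusted p under 0.05 there were 4 of 9 (Xirp1, Nppb, Ankrd1 and Csrp3), all higher after IR, against 15.9% of all genes in either direction and 7.92% higher. Without Slit2-IR replicate 1, or without Slit2-non-IR replicate 2, the count was 2 (Xirp1 and Nppb). The number above 0 without Slit2-IR replicate 1 was 7 of 9 in the average, with a median of 0.23, and 5 of 9 within Slit2-Tg hearts. Within C57BL/6J hearts none of the 9 passed the adjusted threshold in limma (0.439% of all genes did) and 2, Xirp1 and Nppb, had an unadjusted p under 0.05 (8.96% of all genes). Within Slit2-Tg hearts the counts were 0 (0.505% of all genes) and 4 (11.2%), the 4 being those of the average. Xirp1 stayed under the unadjusted threshold within both genotypes whichever library was left out, and each of the others lost it in at least 1 leave-out. Limma-voom on the recovered reads called none at the adjusted threshold within either genotype.

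Among the natriuretic peptides, Nppb was higher in the means of both IR groups. BNP is released mostly by ventricular muscle under wall stress and lowers blood volume and pressure through the receptor NPR-A. Nppb (chr4:147985788-147987205, plus strand of GRCm38, 3 exons) stood at 336, 214 and 137 FPKM in replicates 1 to 3 of C57-non-IR and at 320, 653 and 614 in C57-IR hearts. In Slit2-Tg hearts it stood at 234, 92.7 and 332 FPKM without ischemia and at 704, 280 and 963 after IR. One heart of each IR group, C57-IR replicate 1 and Slit2-IR replicate 2, lay within the range of its non-IR group, so the groups overlapped in both genotypes. The log2 fold change was 1.40 ± 0.39 (SE) averaged over genotypes (limma adjusted p = 0.0823), with 1.23 ± 0.55 in C57BL/6J (adjusted p = 0.548) and 1.57 ± 0.55 in Slit2-Tg hearts (adjusted p = 0.282). The adjusted p of the Nppb average ran from 0.0420, without Slit2-IR replicate 2, to 0.341 over the alternatives, and that leave-out was the one in which it passed.

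Nppa, located in the same stretch of chromosome 4 (chr4:148000722-148002079, plus strand, 3 exons), encodes ANP, the main hormone of atrial muscle, which the ventricle makes in quantity before birth. Its levels were 85.8, 60.8 and 13.3 FPKM in C57-non-IR and 97.3, 80.7 and 74.4 in C57-IR hearts, and 39.5, 37.1 and 90.4 in Slit2-non-IR and 205, 96.9 and 50.5 in Slit2-IR hearts. All 4 groups overlapped. The lowest value, 13.3, came from C57-non-IR replicate 3 and the highest, 205, from the Slit2-IR heart with 1684 FPKM of atrial markers. The average IR difference was 0.98 ± 0.46 on the log2 scale (limma adjusted p = 0.335). It was 0.72 without Slit2-IR replicate 1 and 0.58 without C57-non-IR replicate 3. Nppa made up 4.98% to 28.6% of the summed Nppa and Nppb FPKM, so in every library Nppb was the more abundant of the pair. An antisense gene that overlaps Nppa, Gm13054, had at most 15 reads in a library.

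Of the other natriuretic peptide pathway genes (12 listed, 11 tested), 1 passed the adjusted threshold in the average over genotypes, as did 3.48% of all genes. Nppc, the C-type peptide of vessel walls, rose by 0.54 ± 0.13 on the log2 scale (limma adjusted p = 0.0450) from very low levels, 0.174 ± 0.143 to 0.820 ± 0.529 FPKM in C57BL/6J and 0.099 ± 0.064 to 0.531 ± 0.063 in Slit2-Tg hearts (SD, n = 3). The median log2 fold change of the list was -0.01. The alternatives were run for the members and not for the genes of this or the later lists. Mme, the protease neprilysin that degrades the peptides, had 1.36 ± 0.23 FPKM in Slit2-non-IR and 0.860 ± 0.173 in Slit2-IR hearts, a log2 difference of -0.34 with a limma adjusted p of 0.238.

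The fetal sarcomere isoforms Myh7 and Acta1 passed neither threshold after IR, in either genotype or on average. Myh7 (chr14:54970688-54994634, minus strand, 41 exons) encodes the slow myosin motor that Myh6 replaces in the adult mouse ventricle. It was listed at 38.7, 11.4 and 14.4 FPKM in C57-non-IR, 22.3, 18 and 17.1 in C57-IR, 21.7, 30.5 and 51.3 in Slit2-non-IR and 62.0, 35.9 and 20.6 in Slit2-IR hearts. The groups overlapped and the IR difference averaged over genotypes was 0.08 on the log2 scale with a 95% interval of -0.65 to 0.81. Myh6 itself averaged 3253 FPKM, so Myh7 was 0.409% to 1.5% of the pair, with both extremes reached in single hearts (C57-non-IR replicate 2 and Slit2-IR replicate 1). This share is uncertain, since 11.2% of the 100-base stretches of the longest Myh7 transcript occur without a mismatch in a Myh6 transcript. The gene length listed for Myh7, 8586 bases, also exceeds the 6230 bases of that transcript. The antisense RNA Mhrt overlaps Myh7 and was listed at 7.39 to 42.3 FPKM, and with the use of strand unknown its reads and those of Myh7 cannot be separated.

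Acta1 (chr8:123891769-123894751, minus strand, 7 exons) encodes the actin of skeletal muscle fibers, which the fetal and the loaded heart also express beside cardiac actin. Its levels were more scattered after IR than without ischemia. C57-non-IR hearts had 157, 173 and 123 FPKM, but C57-IR hearts had 218, 61.9 and 362. Slit2-non-IR hearts had 216, 117 and 300 FPKM and Slit2-IR hearts 469, 65.7 and 417. In both genotypes replicate 2 of the IR group was thus the lowest heart and replicates 1 and 3 were above every C57-non-IR heart. The SD in the IR groups was 150 and 219 FPKM, against 25.5 and 91.8 without ischemia, and the average IR difference was 0.22 with a 95% interval of -0.96 to 1.40 on the log2 scale (limma adjusted p = 0.909). Acta1 was 1.10% to 6.27% of the summed Acta1 and Actc1 (cardiac actin) FPKM, and none of the 100-base stretches of its transcript occurred in an Actc1 transcript.

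Of the adult and fetal isoform counterparts of these genes (21 listed, 20 tested), 1 passed the adjusted threshold in the average over genotypes, as did 3.48% of all genes. This 1 gene rose, where 2.33% of all genes passed as higher, and none fell. It was Slc2a1, the glucose transporter GLUT1 of the fetal heart, at 0.58 ± 0.13 on the log2 scale (limma adjusted p = 0.0320), from 5.02 ± 0.39 to 8.78 ± 2.10 FPKM in C57BL/6J and 6.09 ± 0.54 to 9.09 ± 2.11 in Slit2-Tg hearts (SD, n = 3). The list's median log2 fold change was 0.09.

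Xirp1 rose after IR. Xirp1 (chr9:120013755-120023598, minus strand, 3 exons) encodes Xin, an actin-bundling protein of the intercalated disc. C57-non-IR hearts had 36.7, 43.6 and 55.5 FPKM and C57-IR hearts 95.5, 234 and 89.5. Slit2-non-IR hearts had 58.2, 60.6 and 52.4 FPKM and Slit2-IR hearts 141, 215 and 77.8. Every IR heart lay above every non-IR heart, in both genotypes, a pattern that 2.93% of all genes showed in this direction within both genotypes (6.74% within C57BL/6J and 8.64% within Slit2-Tg hearts). The log2 fold change was 1.35 ± 0.28 (SE), a 2.54-fold change with a 95% interval of 1.67 to 3.87 (limma adjusted p = 0.0227). It was 1.48 ± 0.39 in C57BL/6J (adjusted p = 0.165) and 1.21 ± 0.39 in Slit2-Tg hearts (adjusted p = 0.234). Replicate 2 of each IR group was the highest, at 234 and 215 FPKM, and without C57-IR replicate 2 or Slit2-IR replicate 2 the adjusted p of the average stayed under 0.05.

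The call for Xirp1 was close to the threshold. Its adjusted p ranged from 0.00846 to 0.0909 over the alternatives, while the log2 fold change stayed between 1.10 and 1.54. It was 0.0678 with no filter beyond 1 read and 0.0909 with the atrial marker level as a covariate, and it lay between 0.0504 and 0.0608 without C57-non-IR replicate 1 or 2, any one Slit2-non-IR heart or Slit2-IR replicate 1. Without both libraries high in atrial markers the Xirp1 adjusted p was 0.0754. Cx3cr1, on the same strand, overlaps the annotated span of Xirp1 but was listed at 0.300 to 1.28 FPKM.

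Its relative Xirp2 (chr2:67446002-67526614, plus strand, 9 exons), which encodes a second and longer Xin protein at the same sites, did not show this. Xirp2 was at 27.3, 22.8 and 20.7 FPKM in C57-non-IR, 33.5, 20.6 and 27.6 in C57-IR, 30.5, 19.3 and 29.6 in Slit2-non-IR and 47.9, 20.9 and 29.5 in Slit2-IR hearts. The groups overlapped, and the average IR difference was 0.21 with a 95% interval of -0.22 to 0.65 on the log2 scale (limma adjusted p = 0.697). Xirp1 made up 57.3% of the summed Xirp1 and Xirp2 FPKM in the lowest library and 91.9% in the highest. The transcripts of the pair share no 100-base stretch.

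Ankrd1 (chr19:36111965-36119844, minus strand, 9 exons) encodes CARP, a titin-binding ankyrin repeat protein that also moves to the nucleus. It was tightly grouped in C57BL/6J hearts, at 297, 345 and 301 FPKM without ischemia and 487, 460 and 424 after IR, and these groups did not overlap, as was so in this direction for 6.74% of all genes. In Slit2-Tg hearts the spread was larger, with 299, 247 and 700 FPKM without ischemia and 1236, 403 and 859 after IR. One Slit2-non-IR heart was above every C57-IR heart and one Slit2-IR heart was below them. The log2 fold change was 0.54 ± 0.41 in C57BL/6J (limma adjusted p = 0.849), 1.02 ± 0.41 in Slit2-Tg (adjusted p = 0.368) and 0.78 ± 0.29 on average (adjusted p = 0.200). The SE is shared by all 4 groups. A fit of only the 6 C57BL/6J hearts gave the same 0.54 with an SE of 0.12, which passed the unadjusted threshold and not the adjusted one (adjusted p = 0.206). The 3 libraries with the most Ankrd1 were also the 3 highest in skeletal muscle markers. Without Slit2-IR replicate 1 the Ankrd1 difference was 0.66 in Slit2-Tg hearts and 0.60 on average, and neither was then under the unadjusted threshold.

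Csrp3 (chr7:48830398-48848033, minus strand, 6 exons) encodes muscle LIM protein, an adaptor of the Z-disc. It stood at 430, 371 and 348 FPKM in C57-non-IR, 451, 485 and 378 in C57-IR, 352, 294 and 404 in Slit2-non-IR and 583, 382 and 463 in Slit2-IR hearts. The average IR difference was 0.31 ± 0.12 on the log2 scale, a 1.24-fold change (limma adjusted p = 0.232), and the groups overlapped in both genotypes. Without Slit2-IR replicate 1 it was 0.23, and then no longer passed the unadjusted threshold.

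Fhl1, on the X chromosome (chrX:56731787-56793346, plus strand, 7 exons in its principal transcript), encodes a LIM protein that binds the titin N2B spring. It was the steadiest member, at 26.7, 25.9 and 26.7 FPKM in C57-non-IR, 30.6, 26.1 and 29.9 in C57-IR, 25.7, 27.9 and 26.8 in Slit2-non-IR and 30.2, 20.6 and 29.7 in Slit2-IR hearts. The average IR difference was 0.05 with a 95% interval of -0.15 to 0.25, which leaves room for a rise of at most 1.19-fold on this scale. The low heart of the Slit2-IR group was again replicate 2.

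**Figure D3:**
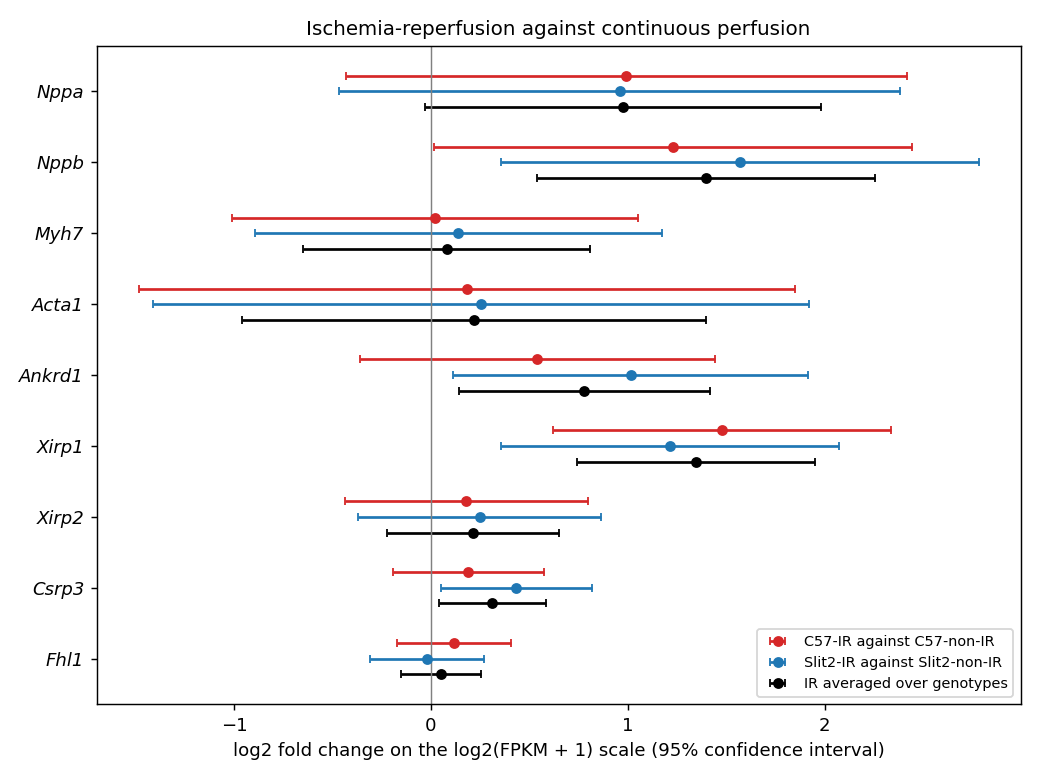
Log2 fold change of IR against non-IR hearts (log2(FPKM + 1) scale) for each member in C57BL/6J hearts, Slit2-Tg hearts and the average of both, with 95% confidence intervals from limma. Before adjustment, the intervals of Xirp1 and Nppb lie above 0 in all 3 comparisons. Those of Ankrd1 and Csrp3 do so in Slit2-Tg hearts and on average, and those of Nppa, Myh7, Acta1, Xirp2 and Fhl1 include 0 in all 3.

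Replicate 2 of both IR groups differed from its companions in several members at once. In C57-IR replicate 2, Acta1 (61.9 FPKM), Xirp2 and Fhl1 were the lowest of the group while Xirp1, Nppb and Csrp3 were the highest. In Slit2-IR replicate 2, 6 members were the lowest of their group (Nppb, Acta1, Ankrd1, Xirp2, Csrp3 and Fhl1), and Xirp1 alone was the highest. The 2 hearts with the least Acta1 of all 12 were therefore the 2 with the most Xirp1. As a description over 12 libraries, the deviations of Acta1 and Xirp1 from their group means had a Pearson correlation of -0.832, those of Acta1 and Fhl1 0.824, those of Acta1 and Xirp2 0.799 and those of Ankrd1 and Csrp3 0.798. With group means kept in, Acta1 and Xirp1 had a Pearson correlation of only -0.316 and a Spearman rho of -0.077. The Pearson correlations of the other pairs were then 0.723, 0.803 and 0.813, in the same order. The libraries share their scaling, and the labels name no litter, day or batch for a replicate number.

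**Figure D4:**
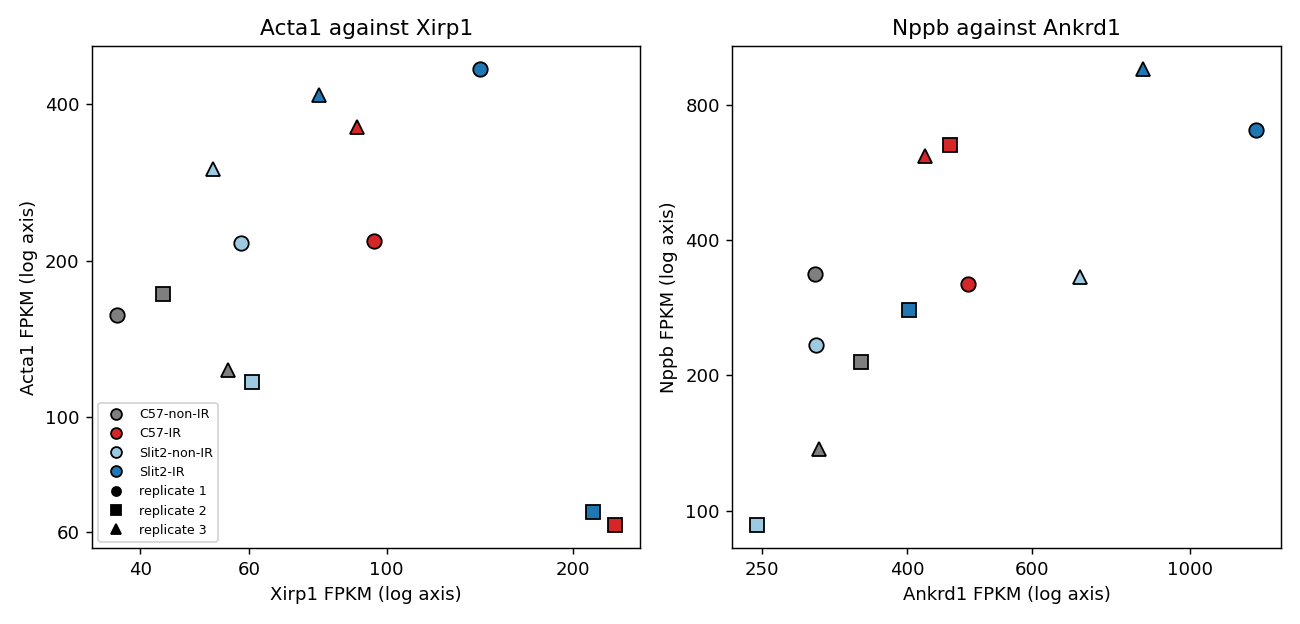
Acta1 against Xirp1 (left) and Nppb against Ankrd1 (right) in FPKM on log axes, 1 point per heart, coloured by group and shaped by replicate number. The squares of C57-IR and Slit2-IR replicate 2 lie apart at the lower right of the left panel, at 61.9 and 65.7 FPKM of Acta1 and 234 and 215 FPKM of Xirp1.

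The lists of genes that work with the members were small in number of calls. Of 30 Z-disc, I-band and intercalated disc genes, all tested, 2 passed the adjusted threshold in the average over genotypes, both higher after IR, where 3.48% of all genes passed and 2.33% passed as higher. A fold change above 0 was found for 29 of 30, against 51.2% of all genes, and the list's median was 0.15. That number was not counted again without Slit2-IR replicate 1. Ankrd23, the DARP relative of Ankrd1, rose by 0.90 ± 0.13 on the log2 scale (limma adjusted p = 0.00478), from 5.57 ± 1.42 to 10.6 ± 1.7 FPKM in C57BL/6J and 6.05 ± 0.61 to 12.8 ± 2.7 in Slit2-Tg hearts. Bag3, the co-chaperone that clears damaged filamin at the Z-disc, rose by 0.87 ± 0.16 (adjusted p = 0.0123), from 69.7 ± 18.2 to 118 ± 7 and from 74.2 ± 9.9 to 149 ± 46 FPKM. Of the targets and cofactors of SRF and YAP/TEAD (23 listed, 19 matched by symbol and tested), 3 rose, against 2.33% of all genes, and none fell, with a list median of 0.21. Cyr61, a matricellular protein and standard YAP target, rose by 1.21 ± 0.20 (adjusted p = 0.00704), from 185 ± 5 to 432 ± 147 FPKM in C57BL/6J and 192 ± 60 to 451 ± 110 in Slit2-Tg hearts. Its relative Ctgf rose by 1.35 ± 0.31 (adjusted p = 0.0421), and Srf, the factor that binds the CArG box, by 0.47 ± 0.10 (adjusted p = 0.0231). Of 21 transcription and calcineurin regulators, 1 passed, as did 3.48% of all genes. It was Rcan1, the calcineurin inhibitor that calcineurin itself induces, at 1.12 ± 0.18 (adjusted p = 0.00761). Its levels went from 23.2 ± 2.9 to 55.7 ± 25 and from 24.4 ± 1.2 to 53.8 ± 10.7 FPKM (all SDs over 3 hearts).

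Slit2-Tg hearts were compared with C57BL/6J hearts under each perfusion. No member passed the adjusted threshold in limma without ischemia (0.0393% of all genes did) or after IR (0.0459%), and none had an unadjusted p under 0.05 in either (3.18% and 3.16% of all genes did). Limma-voom on the recovered reads also called none at the adjusted threshold. Of the 9, Myh7 had the largest differences, 0.77 ± 0.47 without ischemia (adjusted p = 0.9995) and 0.88 ± 0.47 after IR (adjusted p = 0.9996), with groups that overlapped in both. After IR, a fit of only the 6 hearts compared put Myh7 just under the unadjusted threshold, with an adjusted p of 0.9996. Gm3375, a processed pseudogene, was among the 3 genes whose pattern was most like that of Myh7. It stood at 2.35 to 4.43 FPKM in C57BL/6J hearts, 3.81 to 49.6 in Slit2-non-IR and 3.27 to 26.2 in Slit2-IR hearts. The lowest heart of each Slit2-Tg group thus lay within the C57BL/6J range.

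After IR, 8 of 9 members were higher in the fit for Slit2-Tg hearts, as were 49.9% of all genes, with a median of 0.21, and without Slit2-IR replicate 1 the number was 4 (Nppb, Myh7, Ankrd1 and Xirp1) with a median of -0.03. Ankrd1 went from 0.72 to 0.36 on the log2 scale without it, Myh7 from 0.88 to 0.50, Acta1 from 0.46 to -0.03 and Nppa from 0.26 to -0.25. Without the heart with 1684 FPKM of atrial markers, the direction thus turned for 4 of the 9 (Nppa, Acta1, Xirp2 and Csrp3). The other 5 kept theirs. Leaving out other hearts moved values either way. Nppb fell as low as -0.18 and Xirp1 as low as -0.26, and Acta1 and Fhl1 also turned direction in such leave-outs. Myh7 and Ankrd1 turned in none. Without Slit2-IR replicate 2, Ankrd1 was at 1.17 (adjusted p = 0.810) and Acta1 at 1.37 (adjusted p = 0.948), and both passed the unadjusted threshold. Myh7 did so at 1.27 without Slit2-IR replicate 3 and at an unchanged 0.88 without C57-non-IR replicate 1, and Ankrd1 at an unchanged 0.72 without Slit2-non-IR replicate 3. None of these passed the adjusted threshold. The intervals of all members with that heart included 0, and the narrowest, that of Fhl1, ran from -0.41 to 0.17, while that of Acta1 ran from -1.20 to 2.13.

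**Figure D5:**
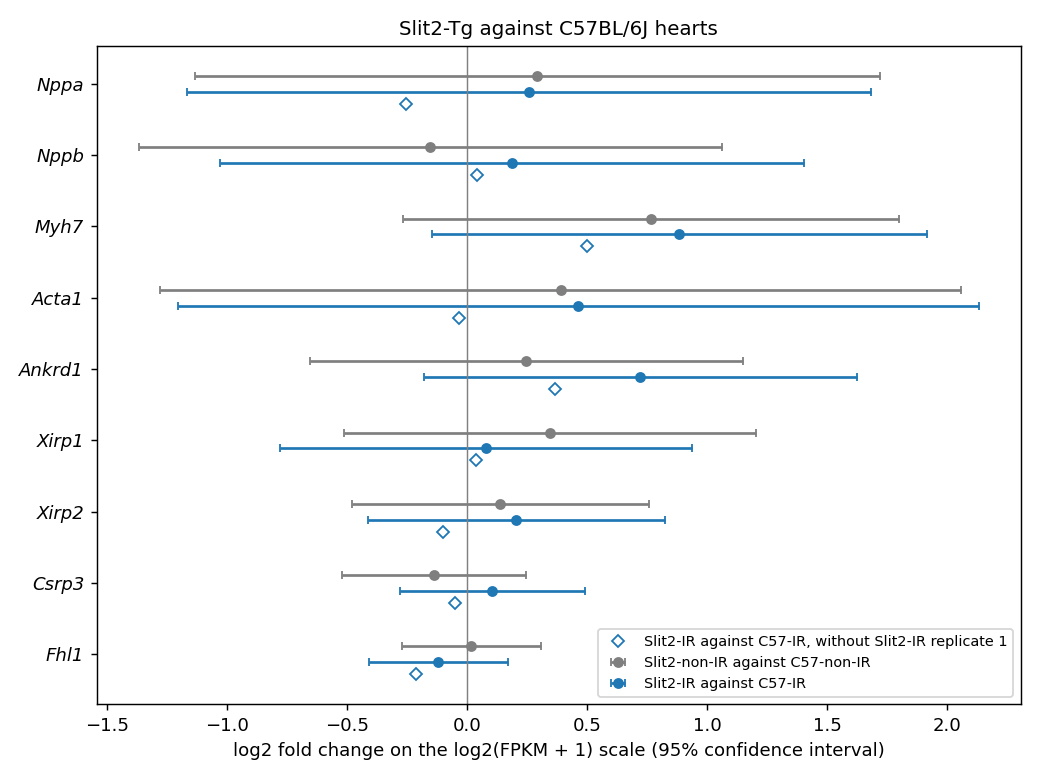
Log2 fold change of Slit2-Tg against C57BL/6J hearts (log2(FPKM + 1) scale) without ischemia and after IR, with 95% confidence intervals from limma, and after IR without Slit2-IR replicate 1 (open diamonds, no interval). Every interval includes 0, and the diamonds of Nppa, Acta1, Xirp2 and Csrp3 lie on the other side of 0 from the values with that heart.

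Whether IR acted differently in the 2 genotypes was tested as the interaction of Slit2 and IR. It ranged from -0.27 for Xirp1 to 0.47 for Ankrd1 over the 9 members. None passed the adjusted threshold in limma or had an unadjusted p under 0.05, and over all genes 0% and 1.85% did. The interval for Ankrd1, -0.80 to 1.75, held values as large as its average IR effect of 0.78. A difference of that size was thus not excluded with 3 hearts a group. The interval for Xirp1 was -1.48 to 0.95.

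For each member the 3 tested genes (mean of at least 1 FPKM) with the most similar pattern of log2(FPKM + 1) over the 12 libraries were listed, as a description. For Xirp1 they were Dnajb4, a co-chaperone of the HSP40 family (Pearson r = 0.970, Spearman rho = 0.923), Gpr183 (0.968 and 0.909) and Asb4 (0.967 and 0.951). Dnajb4 averaged 13.2 ± 1.0 FPKM (SD, n = 3) without ischemia and 28.6 ± 9.0 after IR in C57BL/6J, and 14.5 ± 2.2 and 33.1 ± 14.4 in Slit2-Tg hearts. For Ankrd1 they were Prmt2 (r = 0.964, rho = 0.944), Dpysl3 (0.923 and 0.888) and Tgfb2 (0.921 and 0.881), and for Nppb Pdlim1, a LIM protein of actin fibers (0.934 and 0.902), Tgfb1 (0.929 and 0.902) and Sec63 (0.907 and 0.930). A transforming growth factor β gene thus stood on both lists, Tgfb2 at 0.951 to 2.38 FPKM and Tgfb1 at 4.43 to 8.15. For Xirp2 the list was Clpb, Aars and Mybpc3, the cardiac myosin-binding protein C (r = 0.942), and for Csrp3 Gnai2, Synpo2l, a Z-disc protein (r = 0.915, 11.2 to 74.1 FPKM), and Snd1. Likeness was lower for Nppa (Rnf5, r = 0.884), Acta1 (Fam92a, r = 0.885), Myh7 (Bicra, r = 0.880) and Fhl1 (Bves, r = 0.804). The genes were picked as the most similar of all those tested, and the points share libraries and scaling.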

How the data were processed

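RNA was measured in 12 hearts, with groups and replicate numbers from the sample titles. FPKM values per gene and library were deposited by the authors. The submitters' processing notes name HISAT2 and mm10, and the counting tool, annotation release and use of strand are not given in the sources used here. Within a library, 100% of FPKM values times gene length came out as whole multiples of 1 step (tolerance 0.01 reads), which gave the reads. The steps followed median-of-ratios factors, so libraries had been scaled together. There were 0 unused per-library columns.

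The members and lists were chosen with earlier results of these data known. limma with a variance trend was fitted to log2(FPKM + 1) over 4 groups without covariate, for genes that reached 10 median-library reads in 3 or more libraries and 15 altogether. Named genes were the members, list genes under an adjusted p of 0.05 or else the lowest p of their list, Myh6 and Actc1, and the 3 genes most like each member. Genes of the summed marker lists, Mhrt, Cx3cr1 and Gm13054 were named beside them. Marker sums were compared by exact permutation, two-sided, which with 3 against 3 cannot give a p below 0.1. The extraction notes in the labels call the samples of a group independent.

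Alternatives were a pseudocount of 0.1, 2 other filters, only the 6 libraries compared, the replicate block, TMM scaling, robust prior variance, limma-voom on recovered reads, the atrial level as a covariate and each library left out. Leaving out Slit2-IR replicate 1 with C57-IR replicate 2 was added after seeing the data. Same-numbered libraries deviated together in all 3 pairs (each over 0.1) for Slit2-IR against Slit2-non-IR (0.142 to 0.295) and against C57-IR (0.154 to 0.362). In the other comparisons not all pairs did so (lowest 0.0837 and 0.038). Every correlation was positive, and the replicate 1 pairs had 0.285 to 0.324 in each comparison. Promoters are RefSeq's, transcripts GENCODE M21. The tools were limma 3.58.1 in R 4.3.3, with pandas 2.3.3, scipy 1.17.1 and matplotlib 3.10.9 in Python 3.11.15.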

Additional observations from a re-analysis of the deposited data

How the results depend on the processing

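Xirp1 after IR, averaged over genotypes, kept its direction under every alternative run. With no filter beyond 1 read, the members past the adjusted threshold numbered 0 in that average, and those past the unadjusted one 1 in C57-IR against C57-non-IR. With the atrial level as a covariate these counts were 0 and 1, the unadjusted counts were 2 in the average and 2 for IR within Slit2-Tg hearts, and Myh7 after IR changed sign, at -0.14 in C57BL/6J, -0.16 in Slit2-Tg and -0.15 on average, as did Xirp1 in Slit2-IR against C57-IR at -0.031. In fits of only the 6 libraries compared, the unadjusted counts were 2 in Slit2-IR against Slit2-non-IR and 1 in Slit2-IR against C57-IR. With the replicate number as a block, 1 member passed the adjusted threshold in the average (Xirp1, adjusted p = 0.0111), 5 passed the unadjusted one, and no adjusted call changed.

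Leaving out libraries gave unadjusted counts of 1 to 3 for C57-IR against C57-non-IR, 1 to 4 for Slit2-IR against Slit2-non-IR, 0 to 1 for Slit2-non-IR against C57-non-IR, 0 to 2 for Slit2-IR against C57-IR and 2 to 5 in the average, where the adjusted count ran from 0 to 2. Directions that turned belonged to differences that were past no threshold. For Myh7 after IR the log2 differences ran from -0.31 to 0.53 in C57BL/6J, -0.25 to 0.53 in Slit2-Tg and -0.11 to 0.33 on average, and for Acta1 from -0.36 to 0.90, -0.24 to 1.17 and -0.052 to 0.67. In Slit2-Tg hearts after IR, Xirp2 ran from -0.059 to 0.52 and Fhl1 from -0.11 to 0.15. In Slit2-non-IR against C57-non-IR hearts the ranges were -0.49 to 0.81 for Nppa, -0.54 to 0.37 for Nppb, -0.21 to 0.54 for Ankrd1 and -0.0083 to 0.047 for Fhl1. In Slit2-IR against C57-IR hearts they were -0.28 to 0.75 for Nppa, -0.18 to 0.70 for Nppb, -0.76 to 1.37 for Acta1, -0.26 to 0.52 for Xirp1, -0.28 to 0.48 for Xirp2, -0.050 to 0.25 for Csrp3 and -0.28 to 0.055 for Fhl1. The difference in summed atrial markers ran from -5.56 to 812 FPKM in Slit2-IR against Slit2-non-IR and from -51.8 to 766 in Slit2-IR against C57-IR. Where no value shows it, the cause was not tested. With 3 hearts a group, and reads from 199 upward behind each member, the spread between hearts and not the depth limits these comparisons.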
